A study of Homo sapiens with 6 samples.

Results

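The 82 cytosolic ribosomal protein genes that HL-60 cells express were compared between cells with a stable short hairpin RNA (shRNA) against EZH2 and cells with a scrambled control shRNA. HL-60 is an established, RAS-mutated acute myeloid leukemia line whose cells resemble promyelocytes. The genes were taken from a table of 58884 genes by symbol: protein-coding rows named RPL or RPS with a number, together with RPLP0, RPLP1, RPLP2 and RPSA, without the RPS6K kinases and without the Y chromosome, and with at least 600 reads over the 6 libraries. The names outside the Y chromosome matched 84 rows. RPL3L and RPL10L fell below the minimum with 13 and 12 reads, while RPL26L1, the lowest gene kept, had 4282. Of the 82 genes, 50 encode proteins of the large (60S) subunit and 32 proteins of the small (40S) subunit, and all 82 passed the expression filter for testing.

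The EZH2 shRNA group had 3 libraries, numbered 1, 3 and 4 in their titles, and the scrambled control group 3 libraries, numbered 3, 4 and 5; values are given below in that order. Cells of both groups had been transduced with a lentiviral vector and selected with puromycin, which was washed out before the experiment, and then held for 24 hours in RPMI-1640 with 0.05% fetal bovine serum. Polyadenylated RNA was sequenced as single reads of 50 bases. In the design text each group counts 3 cell lines, whereas the labels describe a stable knockdown and no separate transductions, clones or cultures; p-values therefore reflect the scatter among these 6 libraries, and that scatter may be technical.

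The ribosome is built from a large subunit, which joins amino acids and holds the tunnel through which the new peptide leaves, and a small subunit, which reads the mRNA. Nearly every ribosomal protein is present as a single copy in each ribosome, and the cell makes the proteins in matching amounts. Their mRNAs are among the most abundant in a growing cell and typically begin with a C followed by an unbroken run of pyrimidines, the terminal oligopyrimidine (TOP) tract, through which mTORC1 and LARP1 control their translation and stability. Lack of a single ribosomal protein causes Diamond-Blackfan anaemia, and deletion of RPS14 belongs to the 5q- syndrome, both disorders of blood formation.

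The starts of these genes show that shared feature, so the windows around the annotated start of genes to which the results return are printed here. They are RefSeq promoter sequences on GRCh38.p14, from 40 bases before the start to the 20th base transcribed, 5′ to 3′. Capitals mark a run of C plus at least 4 more pyrimidines that lies at the annotated start. RPL21, RPL38, RPL26 and RPS12 were among the genes with the largest rises in EZH2 shRNA cells.
RPL21, chr13:27251518-27251577, plus strand: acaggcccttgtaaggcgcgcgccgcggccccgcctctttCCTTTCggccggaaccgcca
RPL38, chr17:74203638-74203697, plus strand: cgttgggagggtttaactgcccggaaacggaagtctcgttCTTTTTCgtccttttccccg
RPL26, chr17:8383174-8383233, minus strand: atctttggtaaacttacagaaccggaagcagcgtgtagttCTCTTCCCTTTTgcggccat
RPS12, chr6:132814529-132814588, plus strand: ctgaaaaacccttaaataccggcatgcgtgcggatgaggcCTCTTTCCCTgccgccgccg
RPLP2 and RPS27A were the genes called lower, and RPL27A, like RPLP2 on chromosome 11, was not called.
RPLP2, chr11:809927-809986, plus strand: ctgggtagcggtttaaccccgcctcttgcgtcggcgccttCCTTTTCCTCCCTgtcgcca
RPS27A, chr2:55232648-55232707, plus strand: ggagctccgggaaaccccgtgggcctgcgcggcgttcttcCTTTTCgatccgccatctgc
RPL27A, chr11:8682752-8682811, plus strand: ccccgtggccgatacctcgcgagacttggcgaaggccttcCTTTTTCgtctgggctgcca
RPS28 and RPS4X were called higher without such a run at the RefSeq start.
RPS28, chr19:8321456-8321515, plus strand: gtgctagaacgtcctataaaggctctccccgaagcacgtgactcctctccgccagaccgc
RPS4X, chrX:72277229-72277288, minus strand: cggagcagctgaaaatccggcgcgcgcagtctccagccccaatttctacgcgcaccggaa
RPL22L1, a paralog of a canonical ribosomal protein gene, had a run of 6 bases at its start and is not printed. RPL7L1, RPL26L1 and RPS27L are paralogs too, and these had no run at the start.
RPL7L1, chr6:42879576-42879635, plus strand: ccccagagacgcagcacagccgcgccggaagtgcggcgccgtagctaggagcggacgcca
RPL26L1, chr5:172958689-172958748, plus strand: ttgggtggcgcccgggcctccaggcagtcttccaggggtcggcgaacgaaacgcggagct
RPS27L, chr15:63157458-63157517, minus strand: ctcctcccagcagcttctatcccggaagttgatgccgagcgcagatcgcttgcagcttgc
For RPS27A the annotation has 3 starts and for RPL26L1 it has 2.

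RefSeq promoters were matched for 66 of the 82 genes. A C followed by at least 4 more pyrimidines stood at an annotated start in 47 of the 66 (71.2%), against 5.14% of the 27305 genes of the promoter table. The run was as frequent in the large subunit, with 29 of 41 genes (70.7%), as in the small subunit, with 18 of 25 (72.0%). Within the whole window, 250 bases before to 50 after the start on either strand, CCGGAAG, the core bound by ETS factors, was found in 36.4% of the ribosomal protein promoters and in 12.2% of all. AAGATGGC, the YY1 motif, was in 10.6% against 3.52%, and CTTTCC in 47.0% against 30.2%. TATAAA was in 9.09% against 14.0%, and CACGTG, the E-box bound by MYC, in 7.58% against 8.77%. CTTTCC can lie within the run of pyrimidines, CCGGAAG and AAGATGGC can share the letters AAG, and a match describes the letters alone.

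Total counts lay between 50809853 and 85074624 in the EZH2 shRNA libraries and between 39717343 and 51622861 in the control libraries. EZH2, the enzyme of PRC2 that methylates histone H3 at lysine 27, had 79.4, 83.2 and 77.2 CPM (counts relative to library size, scaled by TMM) in EZH2 shRNA cells and 148, 150.4 and 150.2 CPM in control cells (log2 fold change -0.90 ± 0.04 standard error, SE, edgeR adjusted p = 3.22e-11, exact two-sided permutation p = 0.1, the smallest that 3 against 3 libraries can give). Promyelocyte markers summed to between 10415 and 11091 CPM in EZH2 shRNA libraries and between 10554 and 11211 CPM in control libraries, with 0 of 10 markers at 0. The sums hide changes of single markers. Of the 8 that passed the filter for testing, 4 were called higher and 1 lower, against 23.8% and 22.9% of all genes tested. Their log2 fold changes ran from -0.22 to 2.14. Lymphoid markers summed to at most 0.24 CPM (MS4A1 at 0), erythroid to at most 0.024 CPM (HBB and ALAS2 at 0) and fibroblast markers to at most 0.33 CPM (COL1A2 and DCN at 0) in any library. Epithelial markers summed to 2.27 to 3.09 CPM against 0.78 to 1.28 CPM, with EPCAM and CDH1 at 0. Eosinophil markers (CLC, IL5RA, EPX and PRG2) summed to between 137 and 151 CPM in EZH2 shRNA libraries, against 5.73 to 6.25 CPM in control libraries, and their part in the results below was not tested.

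Ribosomal protein mRNAs made up a larger share of the RNA in EZH2 shRNA cells. The 82 genes took 13.05%, 12.09% and 12.47% of all counts in the EZH2 shRNA libraries and 11.05%, 11.13% and 10.79% in the control libraries, so that the groups did not overlap. The means were 12.54% ± 0.48 and 10.99% ± 0.18 (SD, n = 3 each), a ratio of 1.14. The 95% exact binomial intervals of single libraries were at most 0.00975 percentage points wide on each side, counting error only. The large subunit genes held 7.62% ± 0.26 in EZH2 shRNA cells against 6.59% ± 0.10 in control cells, and the small subunit genes 4.924% ± 0.22 against 4.402% ± 0.08. In bulk RNA a change in how many cells express a gene and a change in its RNA per cell cannot be told apart. Mitochondrially encoded genes, which supply another large part of the reads, held 3.78% ± 0.20 against 3.25% ± 0.02; their part in the comparison was not tested, and with both sets left out of the scaling factors the count of ribosomal protein genes called higher, given next, was also 53.

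**Figure D1:**
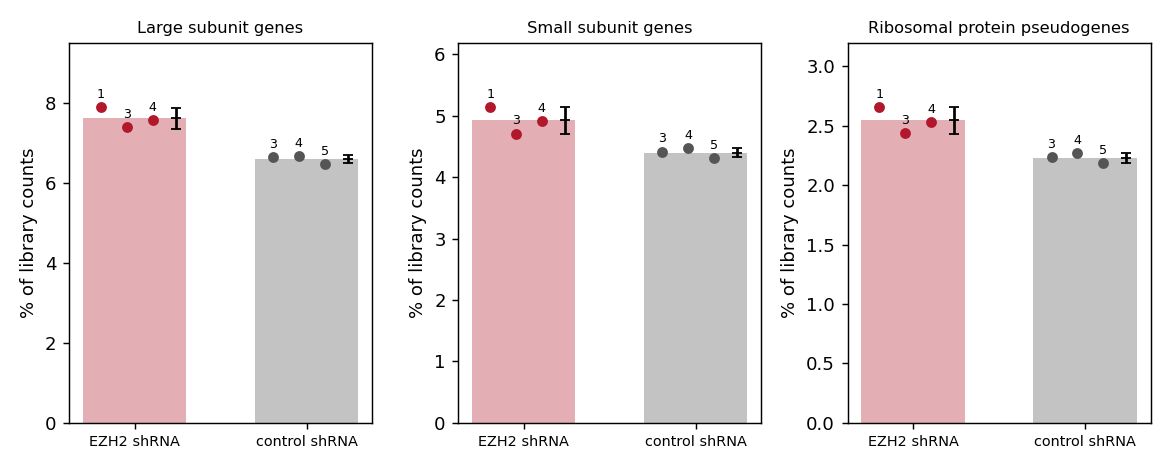
Share of each library's counts, in percent, on genes of the large subunit, genes of the small subunit and ribosomal protein pseudogenes, in 3 EZH2 shRNA libraries and 3 control libraries. Points are libraries with their numbers, bars are means and error bars are SD; all 3 EZH2 shRNA libraries lie above all 3 control libraries in each panel (for the large subunit 7.38% to 7.90% against 6.47% to 6.66%).

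Gene by gene the rises were small and common. Of the 82 genes, 53 were higher (64.6%) and 2 lower in EZH2 shRNA cells at an adjusted p under 0.05, while 27 were not called (edgeR's quasi-likelihood test, Benjamini-Hochberg over 16859 genes). Among all genes tested 23.8% were called higher and 22.9% lower, 46.7% in either direction. The median log2 fold change was 0.20 over the 82 genes, against 0.01 over all genes tested. Over the 1986 other genes with a mean of at least 100 CPM it was -0.02, with 27.9% called higher and 33.8% lower. CPM did not overlap between the groups for 55 of the 82 genes on the higher side and 2 on the lower, against 27.9% and 27.0% of all genes tested. The estimate was above 0 for 75 genes. Individual log2 fold changes ran from -0.20 to 0.58; 3 genes were above 0.5 and 18 lay within 0.1 of 0. Replicates of a group had a median SD of 0.07 on the log2 CPM scale.

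**Figure D2:**
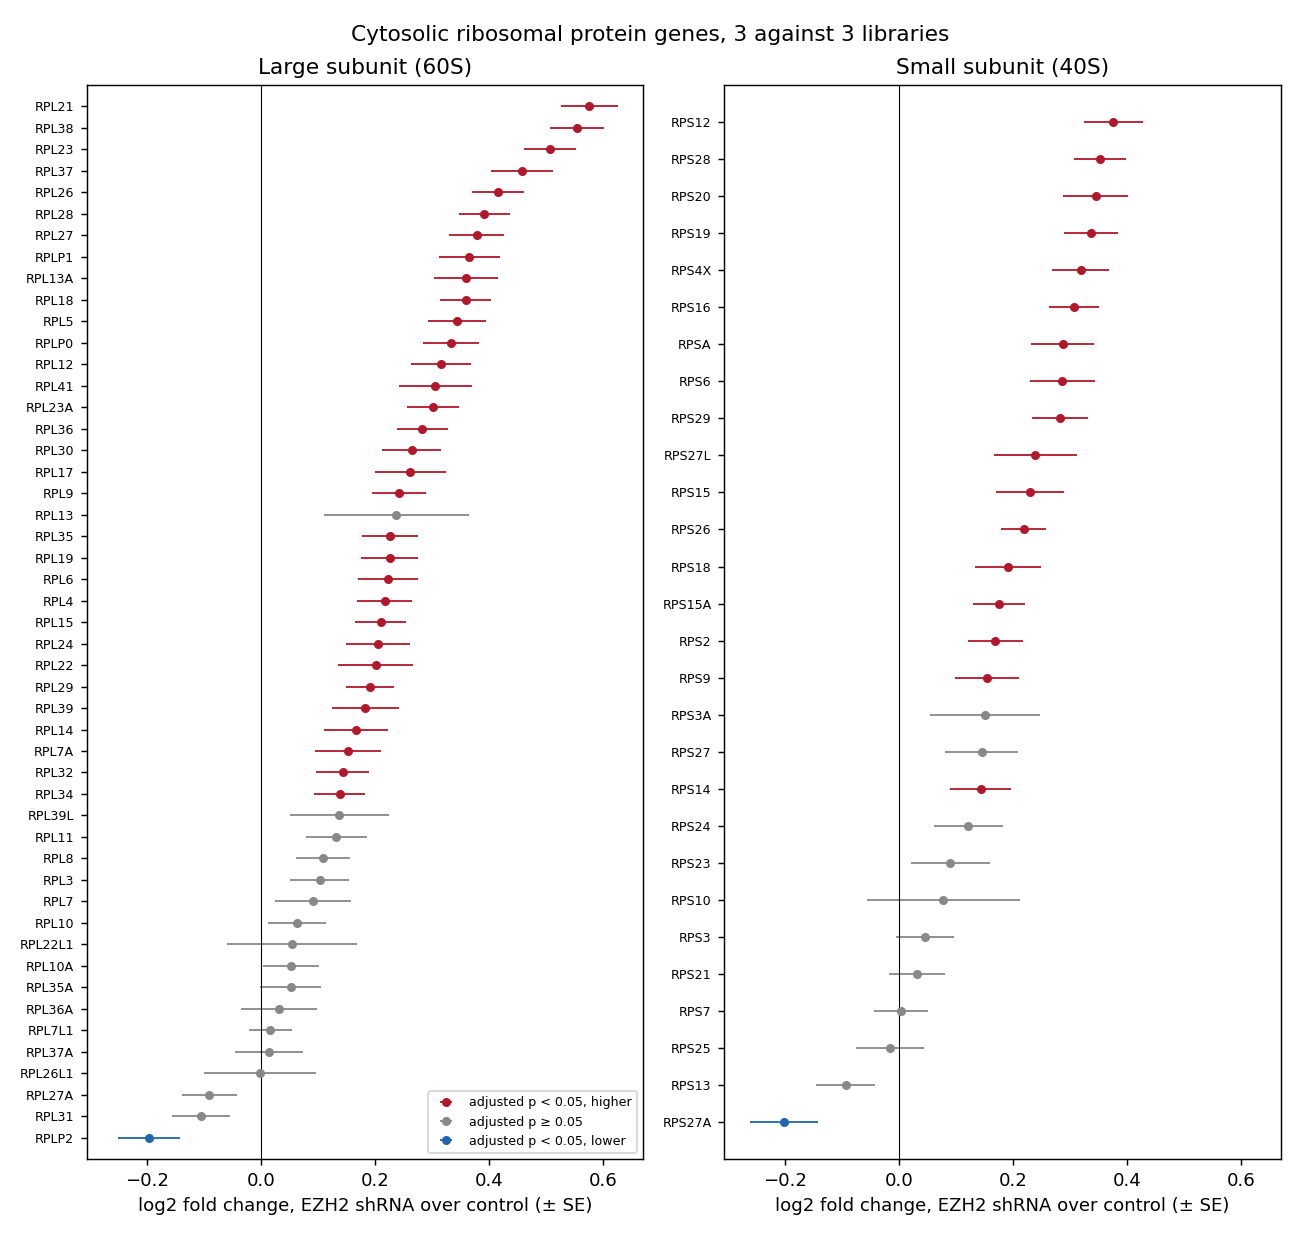
Log2 fold change of EZH2 shRNA over control for genes of the large and the small subunit, ordered by size, with standard errors; some genes are not shown. Red marks genes called higher, blue RPLP2 and RPS27A, called lower here but above 0 once chromosome medians were removed, and grey genes not called.

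In the large subunit 33 of 50 genes were higher and 1 lower, with a median of 0.21. RPL21 (ENSG00000122026; chromosome 13, 27251309 to 27256691 on GRCh38) showed the largest rise, with 1177, 1026 and 1099 CPM in EZH2 shRNA libraries and 736, 751 and 729.5 CPM in control libraries (log2 fold change 0.58 ± 0.05 SE with an edgeR adjusted p of 7.93e-08). The lowest EZH2 shRNA library was above the highest control library. RPL38 (ENSG00000172809; chromosome 17, 74203582 to 74210655), which in mice is known for its role in the translation of Hox mRNAs, had 930.0, 914 and 929 CPM against 622, 673 and 595 CPM (log2 fold change 0.55 ± 0.05 SE with an edgeR adjusted p of 7.68e-08). RPL23, one of the proteins that bind MDM2 when ribosome assembly fails, had 1604, 1460.3 and 1519.8 CPM against 1084, 1084 and 1058 CPM (log2 fold change 0.51 ± 0.05 SE with an edgeR adjusted p of 1.38e-07). Neither gene overlapped between the groups, and control library 4 was the highest control library for RPL38. RPL37 had 2187, 1976 and 2026 CPM in EZH2 shRNA cells and 1509, 1593 and 1406 CPM in control cells (log2 fold change 0.46 ± 0.05 SE with an edgeR adjusted p of 2.87e-06). RPL26, which sits near the exit of the peptide tunnel and is the ribosome's site of UFM1 attachment, had 541, 479 and 501 CPM against 375, 381 and 383 CPM (log2 fold change 0.42 ± 0.05 SE with an edgeR adjusted p of 1.34e-06). RPL37 and RPL26 were likewise apart between the groups.

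The 3 proteins of the stalk that recruits elongation factors did not move together. RPLP0, its base, had 4814, 4716 and 4594 CPM in EZH2 shRNA cells and 3905, 3577 and 3732 CPM in control cells (log2 fold change 0.33, edgeR adjusted p = 3.3e-05), and RPLP1 had 2087, 2218 and 2174 CPM against 1660.3, 1804 and 1565 CPM (0.37, edgeR adjusted p = 2.64e-05). RPLP2 (ENSG00000177600; chromosome 11, 809965 to 812880), the partner of RPLP1 in the stalk's dimers, had 1103, 1022 and 1052 CPM against 1219, 1303 and 1118 CPM (log2 fold change -0.20 ± 0.05 SE with an edgeR adjusted p of 0.00689). Its highest EZH2 shRNA library lay below its lowest control library. Without control library 4 its estimate was -0.14 (edgeR adjusted p = 0.0519), and with the chromosome medians removed it was 0.04 (adjusted p = 0.623).

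Genes of proteins at the core of the large subunit were higher in part. RPL4, whose loop lines the peptide tunnel, was higher at 0.22, whereas RPL3, a protein of the peptidyl transferase region, was at 0.10 (edgeR adjusted p = 0.12) and RPL10, which joins the subunit last and is mutated in some T-cell leukemias, at 0.06 (adjusted p = 0.338). Of the proteins that carry 5S rRNA and restrain MDM2, RPL5 was higher, with 2174, 1909 and 2051 CPM against 1619.7, 1642 and 1573 CPM (log2 fold change 0.34, edgeR adjusted p = 3.15e-05). RPL11, the other one, had 2649, 2279 and 2419.8 CPM in EZH2 shRNA cells and 2273, 2238 and 2193 CPM in control cells; the groups were apart but the gene missed the threshold (0.13, adjusted p = 0.0545). RPL8 missed it too, with 2394, 2228 and 2278 CPM against 2177, 2161 and 2064 CPM (0.11, adjusted p = 0.0712). On the other side of the threshold stood RPL7A, with 3610.4, 3068 and 3257 CPM against 3032, 2873 and 3034 CPM (0.15, adjusted p = 0.0382), a call that was lost in each of the 5 fits without EZH2 library 1 or 4 or without control library 3, 4 or 5.

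Among the remaining higher genes of the large subunit were RPL28, RPL27, RPL13A, RPL18, RPL12, RPL41, RPL23A, RPL36, RPL30, RPL17, RPL9, RPL35, RPL19, RPL6, RPL15, RPL24, RPL22, RPL29, RPL39, RPL14, RPL32 and RPL34, with log2 fold changes between 0.14 and 0.39. RPL13A, known also for silencing inflammatory mRNAs in the GAIT complex, was at 0.36. RPL13 was not called despite an estimate of 0.24. It had 955, 957 and 990.3 CPM in EZH2 shRNA cells and 776, 983 and 703 CPM in control cells, and control library 4 reached the level of the EZH2 shRNA libraries (SE 0.13, edgeR adjusted p = 0.194). Without that library the estimate was 0.39 (adjusted p = 4.58e-05). Not called near 0 were also RPL7, RPL10A, RPL35A, RPL36A and RPL37A, the last with 1817, 1508 and 1691 CPM against 1668, 1706 and 1594 CPM (0.01, adjusted p = 0.872). Below 0, though not called, were RPL27A, with 1874, 1686 and 1757 CPM against 1905, 1908 and 1849 CPM (-0.09, adjusted p = 0.138), and RPL31, with 1218, 1065 and 1129 CPM against 1224, 1259 and 1188 CPM (-0.11, adjusted p = 0.102). In both the EZH2 shRNA and control libraries overlapped. Both were called lower without EZH2 library 1 (adjusted p between 0.00249 and 0.00843 for these and RPS13), and both were above 0 with chromosome medians removed.

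In the small subunit 20 of 32 genes were higher and 1 lower, with a median of 0.17. RPS12 had 3616, 3324 and 3515 CPM in EZH2 shRNA libraries and 2696, 2809 and 2551 CPM in control libraries (log2 fold change 0.38 ± 0.05 SE with an edgeR adjusted p of 1.35e-05). RPS28, at the mRNA exit channel, had 747, 711 and 738 CPM against 575, 599.6 and 546 CPM (log2 fold change 0.35 ± 0.05 SE with an edgeR adjusted p of 6.34e-06). For both genes no EZH2 shRNA library fell to the control range.

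RPS20, a site of ubiquitin attachment when ribosomes collide, had 1033, 870.4 and 981 CPM in EZH2 shRNA cells and 751, 789 and 730.5 CPM in control cells (log2 fold change 0.35 ± 0.06 SE with an edgeR adjusted p of 0.000131). RPS19, the gene most often mutated in Diamond-Blackfan anaemia, had 2272, 2074 and 2124 CPM against 1742, 1691 and 1686 CPM (log2 fold change 0.34 ± 0.05 SE with an edgeR adjusted p of 1.73e-05). RPS4X, whose homologue lies on the Y chromosome, was at 0.32, RPSA, also known as the laminin receptor precursor, at 0.29, and RPS6, the substrate that gives S6 kinase its name, at 0.29, all called higher with groups apart. RPS16, RPS29, RPS15, RPS26, RPS18, RPS15A, RPS2 and RPS9 were higher by 0.15 to 0.31. RPS14, the gene of the 5q- syndrome, was the small subunit gene closest to the threshold, with 2619, 2252 and 2417 CPM against 2248, 2161 and 2188 CPM (log2 fold change 0.14, edgeR adjusted p = 0.0376), and it lost the call in each of the fits without EZH2 library 1 or 4 or without control library 3, 4 or 5.

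RPS27A (ENSG00000143947; chromosome 2, 55231903 to 55235853), which is made as a fusion with ubiquitin, was the lower gene of the small subunit. It had 1622, 1326 and 1453 CPM in EZH2 shRNA libraries and 1692, 1705 and 1662 CPM in control libraries (log2 fold change -0.20 ± 0.06 SE with an edgeR adjusted p of 0.0126). The groups did not overlap, but EZH2 library 1 came close to the control range. Without EZH2 library 4 the estimate was -0.19 (adjusted p = 0.056), and with chromosome medians removed it was 0.05 (adjusted p = 0.541). RPS13 had 976, 868 and 905 CPM against 978, 1025 and 929 CPM (-0.09, adjusted p = 0.154) and RPS25, a protein needed by several viral internal ribosome entry sites, 991, 834 and 940.1 CPM against 908, 986 and 899 CPM (-0.01, adjusted p = 0.864). RPS7 had 986, 903 and 926 CPM against 944, 968 and 896 CPM (0.00, adjusted p = 0.957). These genes overlapped between the groups, as did RPS3, which lines the mRNA entry, RPS21, RPS23, RPS24, RPS27, RPS3A and RPS10, none of which was called.

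Large and small subunit genes differed little. The median log2 fold change was 0.21 for the large and 0.17 for the small subunit, a difference of 0.04, where the SD of that difference between libraries was 0.011. Reads on large subunit genes per read on small subunit genes came to 1.535, 1.567 and 1.540 in EZH2 shRNA libraries and to 1.501, 1.490 and 1.499 in control libraries, without overlap. Outside chromosomes 2, 11, 13 and 17, which were singled out because the medians of their other genes were seen to lie farthest from 0, the order of the medians was the opposite, with 0.20 and 26 of 39 higher in the large subunit and 0.22 and 20 of 27 higher in the small. With chromosome medians removed from every gene the large minus small difference was -0.015. It was 0.015 without control library 3 and 0.023 without control library 4.

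The chromosome on which a ribosomal protein gene lies went with the size of its change. On chromosome 19, which holds 12 of them, 11 were higher, with a median of 0.30 against 0.07 over the other 1028 genes tested there. Of those other genes 29.9% were called higher. All 6 genes on chromosome 17 (RPL19, RPL23, RPL23A, RPL26, RPL27 and RPL38) were higher, with a median of 0.40 against 0.15 over the other genes of the chromosome, of which 39.5% were called higher. RPL21, the gene on chromosome 13, stood at 0.58 where the other genes had a median of 0.21. On chromosome 11 none of 5 genes (RPL27A, RPLP2, RPS3, RPS13 and RPS25) was higher and 1 was lower, with a median of -0.09 against -0.23 for the rest of the chromosome. On chromosome 2 none of 4 (RPL31, RPL37A, RPS7 and RPS27A) was higher and 1 was lower, with a median of -0.05 against -0.25, and 49.6% of the other genes there were called lower. Hence 0 of the 9 genes on chromosomes 2 and 11 and 7 of the 7 on chromosomes 13 and 17 were higher, against 9.90% and 41.2% of the other genes on the same chromosomes.

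The remaining chromosomes lay between. On chromosomes 9, 12 and 15 all 4 genes of each were higher, with medians of 0.26, 0.26 and 0.30. The other genes there had medians of 0.05, 0.0025 and 0.02, and 24.8%, 23.3% and 22.4% of them were called higher. Chromosome 3 had 6 of 9 higher (median 0.17 against -0.0067), and chromosome 1 had 3 of 5 (0.17 against 0.04). Of the other genes on these chromosomes 21.8% and 25.5% were called higher. On chromosome 6, 2 of 5 were higher, on chromosomes 5, 8 and X 2 of 4 each, and on chromosomes 4 and 16 2 of 3 each. The other genes called higher were 21.0% on chromosome 6, 21.3% on 5, 26.6% on 8, 18.4% on X, 15.7% on 4 and 21.4% on 16. Of the genes alone on their chromosome, RPS29 (14) and RPL17 (18) were higher, and RPS24 (10), RPS21 (20) and RPL3 (22) were not called. Over the 15 chromosomes with at least 3 ribosomal protein genes, their median exceeded the median of the other genes in 15 of 15. Across these 15 chromosomes the 2 medians had a Pearson r of 0.90 and a Spearman rho of 0.82, given as a description, since all chromosomes come from the same 6 libraries. Measured from its own chromosome's median, the change was positive for 80 of the 82 genes, with a median of 0.20. Among the largest such differences were those of RPL37 (0.45) and RPL38 (0.41).

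**Figure D3:**
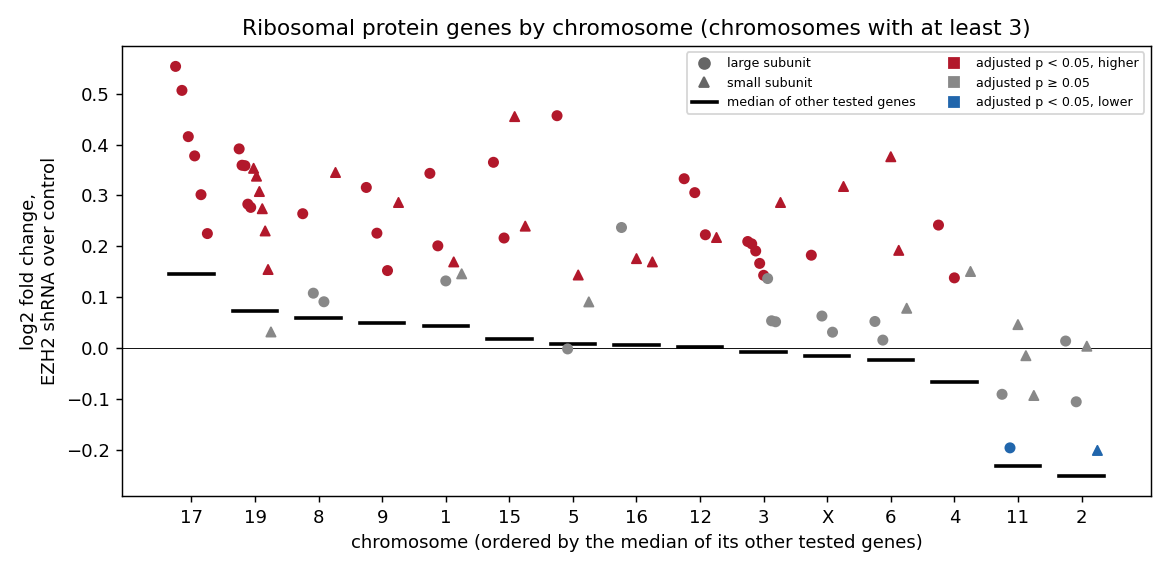
Log2 fold change of EZH2 shRNA over control for each ribosomal protein gene on the 15 chromosomes with at least 3 of them; circles are large and triangles small subunit genes, and black bars the median of the chromosome's other tested genes. Chromosomes are ordered by that bar: the 6 genes of chromosome 17, at the left, lie between 0.23 and 0.55, and those of chromosomes 11 and 2, at the right, between -0.20 and 0.05, with RPLP2 and RPS27A at -0.20 before, and above 0 after, removal of chromosome medians.

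The libraries of the EZH2 shRNA group were not equal in this respect. Set against the mean of the control libraries, the median gene stood at 0.29, 0.14 and 0.19 (log2) in EZH2 shRNA libraries 1, 3 and 4 and at 0.01, 0.02 and -0.03 in control libraries 3, 4 and 5. EZH2 library 1 was the highest of the 6 for 67 of the 82 genes and control library 5 the lowest for 43. EZH2 library 3 was the lowest of the 6 for 18 genes. The median SD between replicates was 0.08 among EZH2 shRNA libraries and 0.05 among control libraries on the log2 scale. Without EZH2 library 3 the genes RPL11, RPL39L, RPL7, RPL8, RPS10, RPS23, RPS24, RPS27 and RPS3A were called higher in addition, which brought the count to 62.

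**Figure D4:**
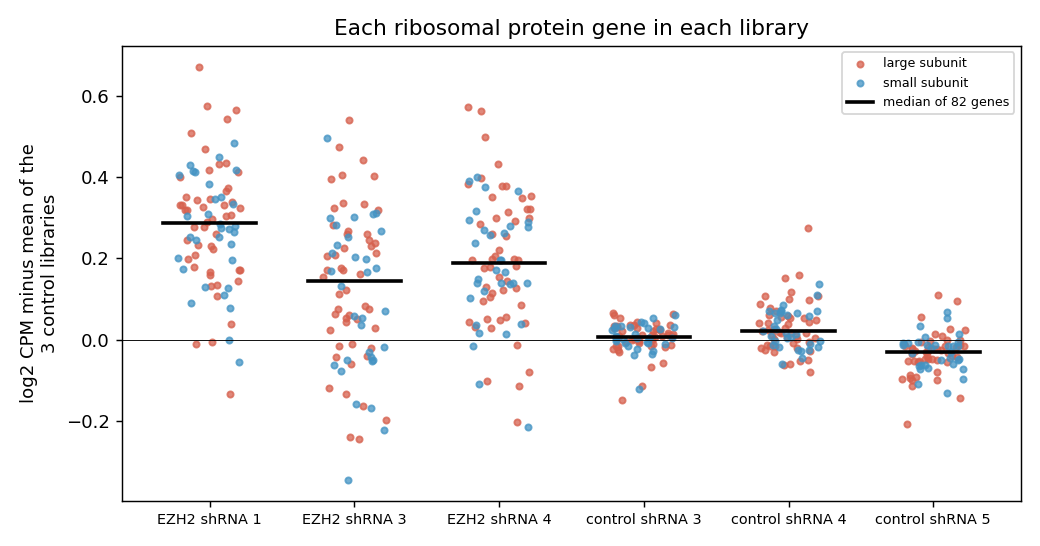
Log2 CPM of each of the 82 genes in each library, minus the gene's mean over the 3 control libraries, with large subunit genes in red and small subunit genes in blue. Black lines are the medians over genes, at 0.29, 0.14 and 0.19 in EZH2 shRNA libraries and 0.01, 0.02 and -0.03 in control libraries.

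Of the 53 higher genes, 34 kept the call in all 20 alternative fits and all 53 kept a positive estimate in each of them. The count of higher genes lay between 35 and 62 and the median log2 fold change between 0.14 and 0.22 over these fits. Calls of genes with small changes depended on single libraries. Without EZH2 library 1 the calls of RPL14, RPL39, RPL41, RPL7A, RPS14 and RPS9 were lost (edgeR adjusted p between 0.0544 and 0.143). Without EZH2 library 4 those of RPL32, RPL7A, RPS14, RPS18, RPS27A, RPS27L and RPS9 were lost (0.0517 to 0.104). Without control library 3 they were RPL14, RPL22, RPL32, RPL34, RPL39, RPL7A, RPS14 and RPS27L (0.0533 to 0.0818), and without control library 4 RPL14, RPL22, RPL7A, RPLP2, RPS14 and RPS9 (0.0519 to 0.153). Without control library 5 there were 11, among them RPL14, RPL22, RPL32, RPL34, RPL39, RPL7A, RPS14, RPS18, RPS2 and RPS9 (0.0573 to 0.122). The larger rises, such as those of RPL21, RPL38, RPL23, RPL37, RPS12 and RPS28, were called in every one of these fits.

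Levels between genes are compared per length, in the FPKM deposited by the authors, which divide by gene-model lengths of 639 to 9845 bases (median 3055.5), where the canonical transcripts of these genes have a median of 827 bases. On that scale 25 of the 82 genes were among the 100 and 49 among the 200 most abundant genes of the table. RPS12 was at rank 3 of all genes, with 5608, 5178 and 5459.6 FPKM in EZH2 shRNA libraries and 4222, 4385 and 3978 FPKM in control libraries. RPS18, at rank 18, had 2226, 1878 and 2061 FPKM against 1818, 1822 and 1785 FPKM. RPS12 did not overlap between the groups, and RPS18 was apart by a small margin. Toward the other end stood RPL36A and RPS27L, at mean levels of 5.41 and 1.55 FPKM. Both levels are uncertain. Pseudogene rows held 328% of the reads of RPL36A, and LACTB, on the opposite strand, stood at 38.1% of RPS27L. Across the 82 genes the log2 fold change had no clear relation to the level (Pearson r 0.05 with log2 FPKM) or to gene-model length (0.05), with all genes measured in the same libraries. The coefficient of variation of FPKM over the canonical genes was 120%, 121% and 122% in EZH2 shRNA libraries and 114%, 115% and 114% in control libraries. That difference rested on RPS12: without this gene it was 90.5%, 89.6% and 89.5% in EZH2 shRNA libraries and 91.7%, 89.3% and 91.9% in control libraries, which overlapped.

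Ribosomal protein mRNAs are short, so other abundant protein-coding genes were laid out by the length of their canonical transcript in GENCODE v44. Of 53 other genes with at least 100 CPM and transcripts up to 800 bases, 39.6% were higher with a median log2 fold change of 0.08; of the ribosomal protein genes in that range 27 of 41 were higher with a median of 0.20. From above 800 up to 1600 bases the figures were 34.4% and 0.06 for 180 other genes, and 14 of 21 and 0.22 for the ribosomal protein genes. From above 1600 up to 3200 bases they were 30.5% and -0.01 for 583 other genes, and 8 of 13 and 0.18 for ribosomal protein genes. Above 3200 bases they were 21.8% and -0.05 for 993 others, and 4 of 7 and 0.17. Short abundant transcripts were thus called higher more often than long ones among the other genes too, whereas the median of the ribosomal protein genes was at similar values in each range. The part of transcript length in the change was not tested.

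Genes called higher were found with and without a run of pyrimidines at an annotated start. The run was sought only at the annotated start base, so genes without it there may still have a TOP tract. In the RPS28 sequence printed above, a C and further pyrimidines begin at the base after the start. Of the 47 genes with a run of pyrimidines at an annotated start, as printed above for RPL38 and RPLP2, 27 were higher and 2 lower, with a median log2 fold change of 0.17. Of the 19 without one, among them RPS28 and RPS4X, 14 were higher, with a median of 0.22. The run was present in 65.9% of the 41 genes called higher that had a promoter sequence and in 80.0% of the 25 not called higher.

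The level of a paralog relative to its parent gene lay apart between the groups in 1 of 5 pairs. RPL26L1, a near copy of RPL26, had 14.9, 11.2 and 13.6 CPM in EZH2 shRNA cells and 13.1, 14.3 and 12.3 CPM in control cells (edgeR adjusted p = 0.992). Per length, RPL26L1 stood at 5.62% ± 0.51 of the RPL26 level in EZH2 shRNA libraries and at 7.52% ± 0.58 in control libraries (SD, n = 3 each), and these ratios did not overlap. RPL7L1 had 231, 229 and 223 CPM against 228, 222 and 224 CPM (0.02, adjusted p = 0.765), at 10.1% ± 1.07 of RPL7 against 10.5% ± 0.20. Its parent RPL7 had 884, 707 and 767 CPM against 740.3, 746 and 727 CPM (0.09, adjusted p = 0.296). In both the groups overlapped.

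RPL22L1, which in mice is repressed by RPL22, had 17.4, 12.7 and 13.02 CPM in EZH2 shRNA cells and 12.7, 14.3 and 14.3 CPM in control cells (0.05, adjusted p = 0.737). RPL22 had 831, 669 and 715 CPM against 642, 643 and 642 CPM (0.20, adjusted p = 0.0234), a call that was lost in each of the fits without control library 3, 4 or 5. RPL39L, best known from testis, had 60.6, 51.2 and 59.2 CPM against 51.02, 57.6 and 46.7 CPM (0.14, adjusted p = 0.237), and it was called higher without EZH2 library 3 or control library 4 (adjusted p = 0.0421 and 0.0261). RPL39 had 808, 679.7 and 698 CPM against 641, 664 and 621 CPM (0.18, adjusted p = 0.019); it lost the call without EZH2 library 1, control library 3 or control library 5. RPS27L, a p53-inducible copy of RPS27, had 15.6, 13.8 and 15.3 CPM against 12.4, 12.9 and 12.6 CPM (0.24, adjusted p = 0.0123), and without EZH2 library 4 or control library 3 the adjusted p was 0.0583 and 0.0533. RPS27 had 1047, 856 and 976 CPM against 869.9, 902 and 830.1 CPM (0.15, adjusted p = 0.0799). The ratios to the parent overlapped between the groups in these 3 pairs. Of the 5 paralogs RPS27L alone was called, against 52 higher and 2 lower among the other 77 genes.

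Reads of ribosomal protein genes can also be counted on their many processed pseudogenes, whose sequences are nearly the same. The table held 1144 rows named as pseudogenes of these genes, with 2.55% ± 0.11 of all counts in EZH2 shRNA libraries and 2.23% ± 0.04 in control libraries. Per 100 reads on the 82 genes there were 20.4, 20.2 and 20.3 pseudogene reads in EZH2 shRNA libraries and 20.2, 20.4 and 20.3 in control libraries, so that the ratio overlapped between the groups. Of 396 such rows tested, 106 were higher and 7 lower, with a median log2 fold change of 0.17. Among all genes tested 23.8% were called higher and 22.9% lower. For 10 genes, among them RPL17, RPS3A, RPL36A, RPS10, RPS15A, RPL7, RPL9, RPSA and RPS23, the pseudogene rows held more reads than the gene itself, up to 1086% for RPL17 and 529% for RPS3A, and the values of these genes are uncertain. For 38 genes they held under 5%. When pseudogene reads were added to their parent genes, 57 of the 82 were higher and 2 lower with a median of 0.22, the gains being RPL11, RPL13, RPL36A and RPS10. With the addition RPL36A was at 0.31 (adjusted p = 0.0003) and RPS10 at 0.30 (adjusted p = 0.000403), against 0.03 and 0.08 without it.

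A gene on the opposite strand overlapped 5 genes with at least 5% of their level, namely LACTB for RPS27L (38.1%), LONP1 for RPL36 (28.1%), LRR1 for RPS29 (9.18%), PTPN11 for RPL6 (8.37%) and RNF207 for RPL22 (5.24%). The strand setting of the counting is not given in the sources used here, so reads of such partners may not be separated.

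Other genes of translation did not move as the ribosomal protein genes did in every class. The counts of each list here and below stand against 23.8% called higher and 22.9% lower over all genes tested. Of 10 elongation factors tested 4 were higher and none lower, with a median of 0.11. They were EEFSEC, the selenocysteine elongation factor, with 31.6 ± 0.163 CPM in EZH2 shRNA cells and 24.3 ± 0.622 CPM in control cells (log2 fold change 0.38 ± 0.05 SE with an edgeR adjusted p of 1.46e-05), EIF5A at 0.24, EEF2, the translocase, at 0.15 and the release factor GSPT1 at 0.11. EEF2 had 7931 ± 50.7 CPM against 7132 ± 284 CPM, and its adjusted p of 0.019 was 0.0900 without EZH2 library 4, 0.0934 without control library 4 and 0.0960 without control library 5. GSPT1, at 0.0281, missed the threshold without EZH2 library 3 or 4 or control library 3 or 5 (0.0581, 0.0956, 0.109 and 0.124).

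The initiation factors split. Of the 13 subunits of eIF3, the scaffold of initiation on the small subunit, 6 were higher and 3 lower, with a median of 0.09. EIF3B had 497 ± 12.5 CPM in EZH2 shRNA cells and 405 ± 3.25 CPM in control cells (log2 fold change 0.30 ± 0.04 SE with an edgeR adjusted p of 1.04e-05); EIF3D was at 0.25, EIF3H at 0.20 and EIF3E at 0.24, all higher. Among 25 other initiation factors 5 were higher and 11 lower, with a median of -0.0087. EIF2S3, the GTP-binding subunit of eIF2, had 344 ± 8.27 CPM against 446 ± 6.18 CPM (log2 fold change -0.37 ± 0.04 SE with an edgeR adjusted p of 7.75e-07). EIF1AX was lower at -0.48 and EIF4G2, on chromosome 11, at -0.34, while EIF2B5, of the eIF2 exchange factor, was higher at 0.27.

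Genes bound to ribosomal proteins by fusion or on the ribosome gave 3 higher and 1 lower of 10, with a median of 0.06. FAU, which encodes RPS30 (eS30) as a ubiquitin-like fusion, had 582, 559 and 566 CPM in EZH2 shRNA cells and 618, 572 and 584 CPM in control cells (-0.06, edgeR adjusted p = 0.315). It lies on chromosome 11, and removal of chromosome medians brought it to 0.18 (adjusted p = 0.00316). TPT1, a classical TOP mRNA on chromosome 13, had 2747 ± 187 CPM against 1809 ± 6.73 CPM (log2 fold change 0.60 ± 0.05 SE with an edgeR adjusted p of 6.91e-08). RACK1, the scaffold on the 40S head, was higher at 0.17 and BTF3 at 0.24, whereas NACA, the partner of BTF3 in the nascent polypeptide-associated complex, was lower at -0.40.

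The small nucleolar RNA host genes, whose spliced transcripts are known as TOP RNAs with little coding capacity, were mostly higher. Of 10 tested, 9 were higher and 1 lower, with a median log2 fold change of 0.37, against 0.20 for the ribosomal protein genes. GAS5 had 914 ± 60.4 CPM in EZH2 shRNA cells and 610.5 ± 15.9 CPM in control cells (log2 fold change 0.58 ± 0.05 SE with an edgeR adjusted p of 6.5e-08). SNHG12 was at 0.42 and SNHG16 at 0.39, and SNHG1, on chromosome 11, was lower at -0.59 with 251 ± 7.71 CPM against 379 ± 5.35 CPM (adjusted p = 3.8e-09). RefSeq starts were matched for 8 of them, of which 3 had the run of C and pyrimidines, SNHG12 and ZFAS1 among them.
SNHG12, chr1:28581854-28581913, minus strand: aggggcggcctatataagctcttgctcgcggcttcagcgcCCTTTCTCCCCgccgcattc
ZFAS1, chr20:49278602-49278661, plus strand: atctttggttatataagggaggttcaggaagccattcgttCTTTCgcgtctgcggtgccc

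**Figure D5:**
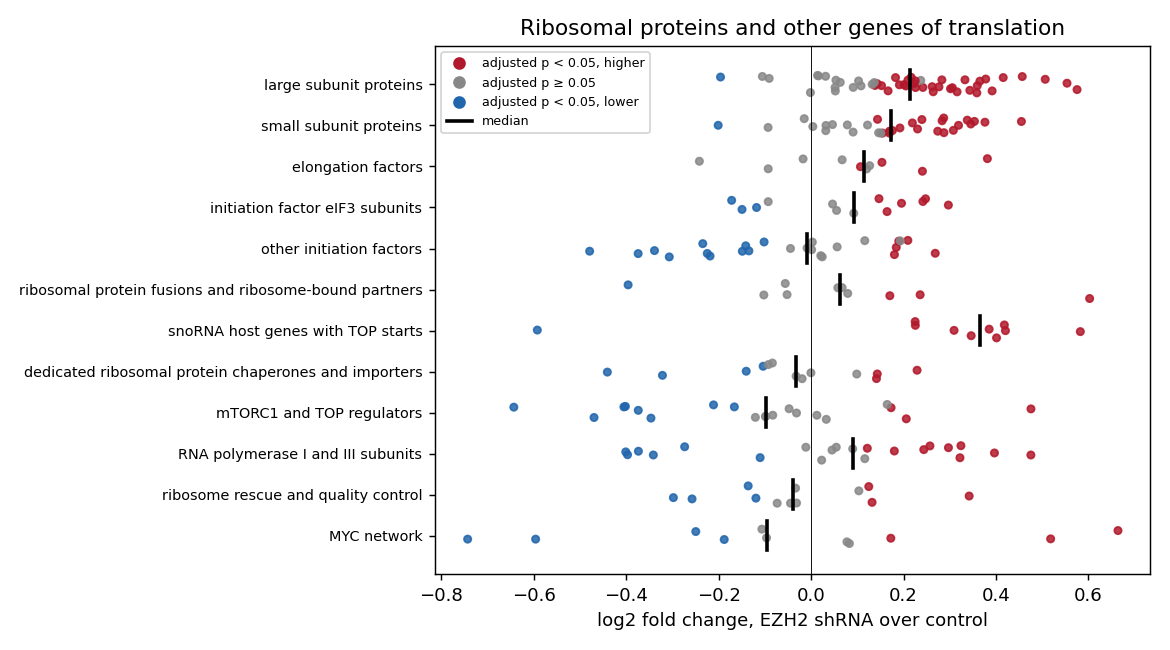
Log2 fold change of EZH2 shRNA over control for genes of the large and small subunit and of 10 further lists of genes of translation; each point is a gene, coloured by its call, and black lines are medians. Medians are 0.21 and 0.17 for the subunits, 0.37 for small nucleolar RNA host genes and between -0.10 and 0.11 for the other lists.

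Genes that serve the making of ribosomes were mixed. Of 21 subunits and factors of RNA polymerases I and III, 9 were higher and 6 lower (median 0.09), with POLR1C, a subunit of both enzymes, at 0.40, and RRN3, TAF1D and POLR1A, which act in the transcription of ribosomal RNA genes, at -0.40, -0.37 and -0.34. Of 13 chaperones and importers of ribosomal proteins 3 were higher and 4 lower (23.1% and 30.8%, median -0.03), near the 23.8% and 22.9% of all genes tested. The importer IPO7 and NAP1L4, both on chromosome 11, were lower at -0.44 and -0.32, and GRWD1 and the importer TNPO1 were higher at 0.23 and 0.14. Factors of ribosome rescue gave 3 higher and 4 lower of 12 (25% and 33.3%, median -0.04), also near those shares. Among them PELO, which splits stalled ribosomes, was higher at 0.34, and LTN1, RNF25 and ASCC3 were lower at -0.26, -0.30 and -0.14.

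Among upstream regulators, those of mTORC1 and TOP translation were more often lower than higher. Of these 20 genes 3 were higher (15%) and 8 lower (40%), with a median of -0.10. The stress-induced inhibitors of mTORC1, SESN2 and DDIT4, had 36.5 ± 1.79 CPM against 57.2 ± 3.86 CPM (log2 fold change -0.64 ± 0.06 SE with an edgeR adjusted p of 7.78e-08) and 124 ± 3.58 CPM against 171 ± 7.84 CPM (log2 fold change -0.47 ± 0.04 SE with an edgeR adjusted p of 1.48e-07). EIF4EBP2, a repressor of cap-dependent translation, was lower at -0.40, and RHEB, the GTPase that activates mTORC1, higher at 0.48. In the MYC network, 3 of 11 genes were higher and 4 lower (27.3% and 36.4%, median -0.10), against 23.8% and 22.9% of all genes tested. MYC, a transcription factor known to drive ribosome production and amplified in HL-60 cells, had 1397 ± 32.01 CPM in EZH2 shRNA cells and 976 ± 15.7 CPM in control cells (log2 fold change 0.52 ± 0.04 SE with an edgeR adjusted p of 4.24e-08). Of its antagonists MXD1 was lower at -0.74 and MXD3 at -0.60, and MXD4 was higher at 0.66. The part of these regulators in the change of the ribosomal protein genes was not tested. With chromosome medians removed EIF5A, NAP1L4, POLR1A and RNF25 were no longer called (adjusted p = 0.0637, 0.0627, 0.15 and 0.65), nor was EEF2 (0.215). These lists were described by counts and medians beside the 23.8% higher, 22.9% lower and median of 0.01 over all genes tested.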

How the data were processed

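Gene-level results came from 2 deposited tables for the same 6 libraries. The authors deposited unnormalized read counts per gene and FPKM values, which are the same counts rescaled: counts divided by FPKM and size factors gave whole-number gene lengths (tolerance 0.001) for 29060 of 29060 genes. Named without roles in the submitters' processing notes are DESeq2 1.24.0, R 3.6.1, STAR 2.5.2b, Picard 2.18.24 and GRCh38 (hg38). How reads were counted (program, annotation release, use of strand) is not given in the sources used here.

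Computed here were TMM-scaled CPM and edgeR 4.0.16 quasi-likelihood tests (R 4.3.3, robust, group as the only term) on the 16859 genes passing filterByExpr, with Benjamini-Hochberg adjustment over all of them and calls at an adjusted p under 0.05. Fold changes, in log2, run EZH2 shRNA over control. Genes were grouped by symbol, and promoters were read from RefSeq (GRCh38.p14). The members and lists were chosen with earlier results of these data known. Values per library are given for the 5 largest and 5 smallest changes in each subunit, the 3 highest FPKM, lower genes, paralogs with their parents and genes next to the threshold; up to 4 genes per list, by smallest p, are named; others were named after their values were seen. Some genes that these rules name are left out. Alternatives covered scaling, filters, DESeq2 1.42.0, limma 3.58.1 on log2 FPKM (pseudocount 1 or 0.1), removed chromosome medians, a replicate block, left-out libraries and, added after the data were seen, pseudogene reads joined to their genes. Depth was 39717343 to 85074624 counts per library. Replicates differed by more than sampling noise (chi-square per degree of freedom 3.02 to 15.9), a scatter that may be technical. Each library was used as a sample.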

Additional observations from a re-analysis of the deposited data

How the results depend on the processing

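The count of higher ribosomal protein genes stayed within 1.5 times of 53 in all alternatives except unfiltered log2(FPKM + 1), which gave 35. The count of lower genes, 2 in the report, was 4 with library size only, 5 with cyclic loess, 0 with log2(FPKM + 1) filtered or unfiltered, 1 with log2(FPKM + 0.1) and 0 with chromosome medians removed. With single libraries left out it lay between 1 (without EZH2 library 4 or control library 4) and 5 (without EZH2 library 1), the count of higher genes between 42 and 62, the median log2 fold change between 0.15 and 0.22, and the large minus small subunit difference between 0.015 and 0.037. With chromosome medians removed that difference was -0.015, and the estimates of RPL31 (0.15), RPS13 (0.14), RPS25 (0.22), RPS27A (0.050), RPL27A (0.14), RPLP2 (0.04) and FAU (0.18) lay above 0. The cause was not tested.

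The groups share the title numbers 3 and 4, which the labels do not tie to a common batch. Deviations of same-numbered libraries correlated at 0.04 and 0.01 over all genes and at 0.15 and 0.37 over the ribosomal protein genes. With 2 shared numbers and no shared batch in the labels, the numbers were not taken to pair the libraries. With a replicate block 42 genes were higher, 5 lower, and the median was 0.14. The smallest change called among these genes was 0.14 on the log2 scale.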
